A study of Mus musculus with 12 samples.

Results

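Hearts of Balb/cJ mice taken 1 week after transverse aortic constriction (TAC) were compared with hearts of Balb/cJ mice taken 1 week after a sham operation. TAC is surgery that narrows the aorta and so loads the left ventricle with pressure. The comparison used 6 of the 12 libraries of the study, chosen by their labelled strain and surgery, with 3 libraries after TAC (numbered 4, 5 and 6) and 3 after sham (numbered 1, 2 and 3). The other 6 libraries were from Balb/cByJ, a substrain that carries a deletion in the short-chain acyl-CoA dehydrogenase gene Acads, again with 3 after each operation. All mice ate a diet with 10 kcal% fat, which began 4 days before surgery. RNA was taken from heart tissue, and neither the dissection nor the age of the animals is given in the sources used here.

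A ventricle under pressure is known to thicken, to return in part to a fetal pattern of muscle genes, to draw less on fatty acids, and to gain fibroblasts, collagen and macrophages. A dissected heart can also carry pieces that are not ventricular wall: atria with their own myosin light chains, fat around the vessels, the mesothelial sheet that covers the heart, and valves with their tendon-like cords. Because RNA of all these tissues is read together, the genes were sorted into lists by tissue and role. Each list is described by how many of its measured members rose or fell and by its level in the sham hearts.

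Values are counts per gene that the authors scaled for library depth, called normalized values here. A difference between the groups is given as log2 of the value plus 1, TAC minus sham, with its standard error (SE) from limma. A gene is said to rise or fall where the Benjamini-Hochberg adjusted p of limma was under 0.1. The labels do not say whether libraries came from separate animals, so p-values here speak only of library-to-library spread, which may be technical. The summed normalized values ran from 28979605 to 34157613 in sham Balb/cJ and from 25161466 to 28765635 in TAC Balb/cJ, and mitochondrially encoded transcripts took 13.54 to 15.58% and 10.75 to 14.46% of them. Across genes, libraries of a Balb/cJ group correlated at r = 0.974 to 0.988, where genes are not independent replicates. Heart muscle markers were abundant in each of the 6 libraries, with the alpha myosin heavy chain Myh6 at 563394 to 854520. The 1 library that went against its label, TAC Balb/cByJ 6, is not part of this contrast, but it entered the filter on the mean, the shared estimate of spread and the within-group slopes. Its value for the repressor Zhx2 was 48, beside 728 to 838 in the other 5 Balb/cByJ libraries and 21 to 47 in Balb/cJ. Without that library 2170 genes rose and 2283 fell in Balb/cJ.

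Of 14038 genes with a mean of at least 10, 2146 rose after TAC in Balb/cJ, which is 15.3% of the genes, and 2273 fell, which is 16.2%. The rises were larger: 899 genes rose more than 2-fold and 140 fell more than 2-fold. Every TAC value lay above every sham value for 18.8% of all genes, and below for 18.1%. Matrix, complement and cell division genes were among the lists in which most members rose, and most oxidative phosphorylation genes fell. The share of rises among the calls was 48.6%, and it became 81.5% (3936 higher and 891 lower) after all libraries were brought to 1 common sum (total rescaling), which moved the median of all genes up by 0.21. List medians are therefore to be read beside the median of all genes, which was 0.00. Leaving out sham 2, sham 3 or TAC 6 left 1322, 1384 and 1206 rises and 866, 1225 and 950 falls.

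**Figure D1:**
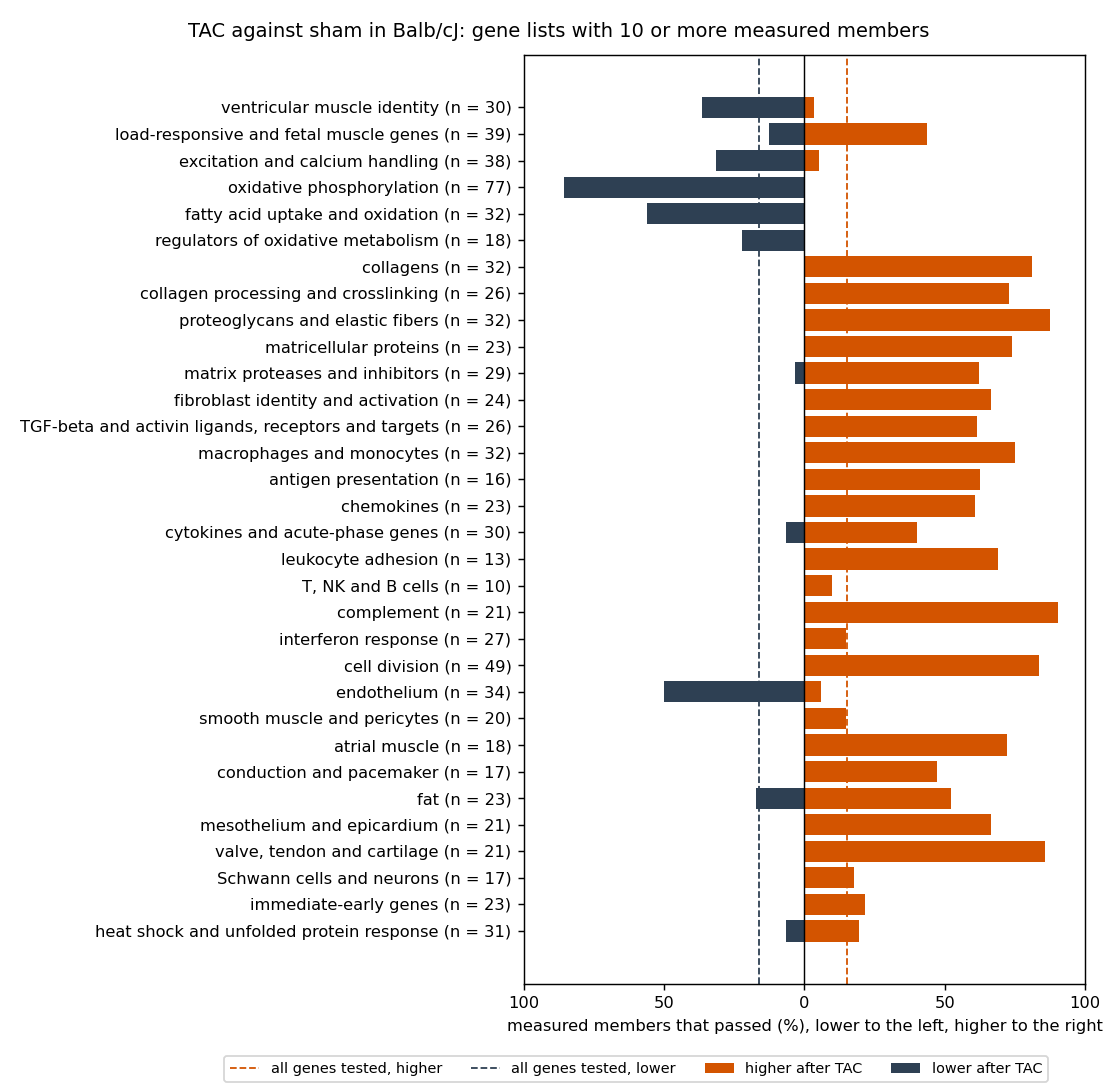
Share of the measured members of each gene list that rose (bars to the right) or fell (bars to the left) after TAC in Balb/cJ, in percent, for lists with 10 or more measured members; dashed lines mark the share of all genes tested, 15.3% higher and 16.2% lower. Matrix, macrophage, complement and cell division lists extend to the right, with complement at 90.5%, and oxidative phosphorylation extends to the left at 85.7%.

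The rises are described by their level in the sham libraries. A gene was called nearly absent from sham Balb/cJ where its sham mean was under 20, which held for 1237 genes, or 8.81% of those tested. These made up 414 of the 2146 rises (19.3%). A gene with a low sham mean enters the test largely through the groups where it is high, so neither the number nor the size of such rises is support for a different kind of change. In sham Balb/cByJ, 162 of the 414 had a mean of 20 or more. Of the 131 measured genes of neighbouring tissues, 69 rose and 34 of these were nearly absent from the shams, 9 of the 12 fat genes that rose and 8 of the 14 mesothelial genes among them. Of the 190 measured matrix genes, 138 rose and 14 of these were nearly absent, while of the 231 measured ventricular genes 20 rose, 1 of them nearly absent. With a limit of 10 or 50 in place of 20, the nearly absent rises numbered 264 and 679.

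**Figure D2:**
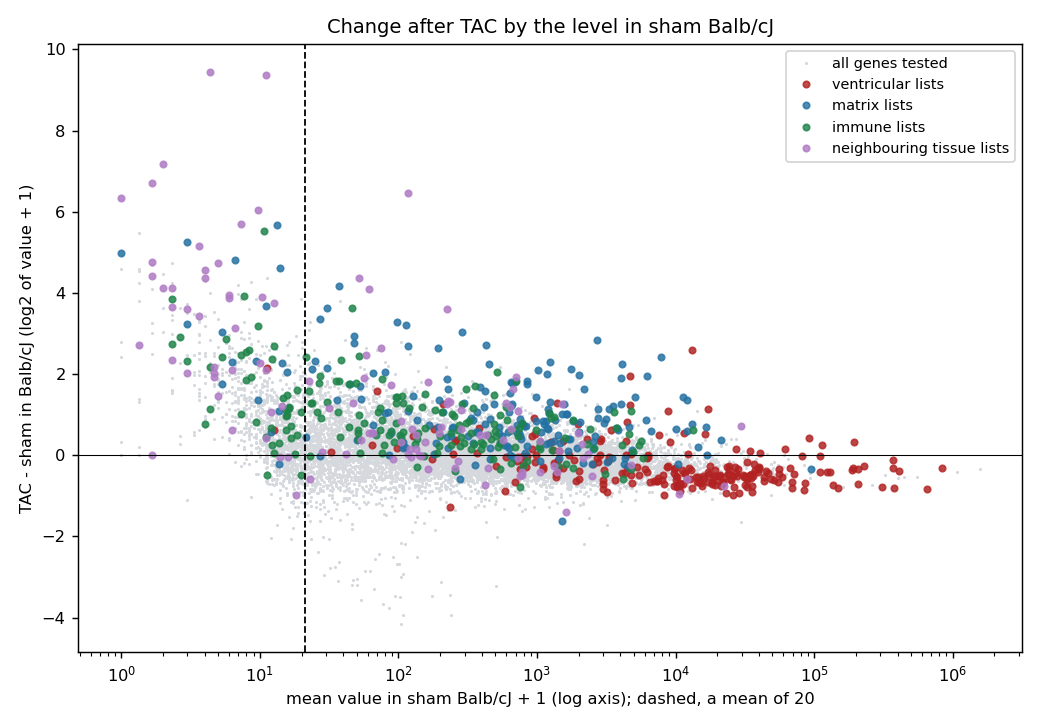
Difference between TAC and sham in Balb/cJ (log2 of value plus 1, vertical) against the mean normalized value in sham Balb/cJ plus 1 (horizontal, log axis) for all genes tested, with members of ventricular, matrix, immune and neighbouring tissue lists in color (a gene on several lists has 1 color) and the limit of 20 dashed. Most ventricular genes lie at high sham values near or below 0, matrix genes rise over the whole range of sham values, and the 2 highest points, Sln and Myl7, lie to the left of the limit.

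Ventricular muscle genes that respond to load moved unequally. Of 39 measured members of the load-responsive and fetal list, 17 rose, 5 fell and 17 did not pass, with a median of 0.40. Fhl1, a LIM protein of the sarcomere that takes part in stretch signalling, was at 4601, 4898 and 4581 in the shams and at 12855, 17296 and 26471 after TAC. The groups did not overlap, and Fhl1 rose by 1.94 ± 0.23 (limma adjusted p = 0.0014). The gene (Entrez 14199) lies on chromosome X at 56731787 to 56793346, plus strand (mm10), and the deposited table gives it 10 exons. Synpo2l, a Z-disc protein, was at 5560, 3803 and 4774 in sham and 8757, 10261 and 14671 after TAC, again without overlap, a rise of 1.24 ± 0.18. Ankrd2, a stretch-responsive ankyrin repeat protein, rose by 2.15 ± 0.45 from 9 to 11 in sham to 32 to 71, and Flnc, the muscle filamin, by 0.53 ± 0.13. Tbx20, a heart transcription factor that is also in the valve, tendon and cartilage list, was the 1 gene of the ventricular identity list to rise, by 0.76 ± 0.14. It was at 2085, 1812 and 1982 in sham and 2847, 2938 and 4336 after TAC. In sham Balb/cByJ it was at 2609, 2810 and 2694, and its difference after TAC in that strain was 0.08 ± 0.14. The difference between the strains' effects did not pass. Without TAC 6 or sham 2 the rises in the load-responsive list numbered 11 and 10, and the falls 1 and 1. Without sham 3 the falls also numbered 1.

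Several well-known markers of load, Nppb, Myh7, Acta1 and Ankrd1, did not pass. Nppb, which encodes brain natriuretic peptide, was at 13705, 22681 and 21643 in sham and at 11346, 14532 and 18747 after TAC. These ranges overlap, and the difference was -0.37 ± 0.25 (limma adjusted p = 0.298). The fetal beta myosin heavy chain Myh7 was at 58681, 69371 and 57297 in sham and at 61639, 77247 and 65746 after TAC, a difference of 0.14 ± 0.16 (adjusted p = 0.54), which passed with total rescaling at 0.36. Skeletal alpha actin Acta1 was at 209627, 208481 and 163726 in sham and at 146747, 326009 and 296624 after TAC, so that TAC 4 lay below all shams and TAC 5 and 6 above (0.33 ± 0.35). The stress-induced repeat protein Ankrd1 had the same order (124877, 96676 and 122324, then 93712, 164516 and 162739), and its difference of 0.25 ± 0.23 passed at 0.52 without TAC 4. Nppb passed as lower without sham 1, at -0.60. Nppa, the atrial natriuretic peptide gene that the loaded ventricle is also known to switch on, was at 12232, 8401 and 18449 in sham and at 32183, 102846 and 123392 after TAC. It rose by 2.58 ± 0.95 (adjusted p = 0.0696) and did not pass when the linear level of the atrial genes Myl7, Sln and Myl4 was added to the fit (the linear atrial covariate, 1.58) or without sham 1, sham 2, sham 3, TAC 5 or TAC 6. Its level followed the atrial genes within groups, as described with them.

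**Figure D3:**
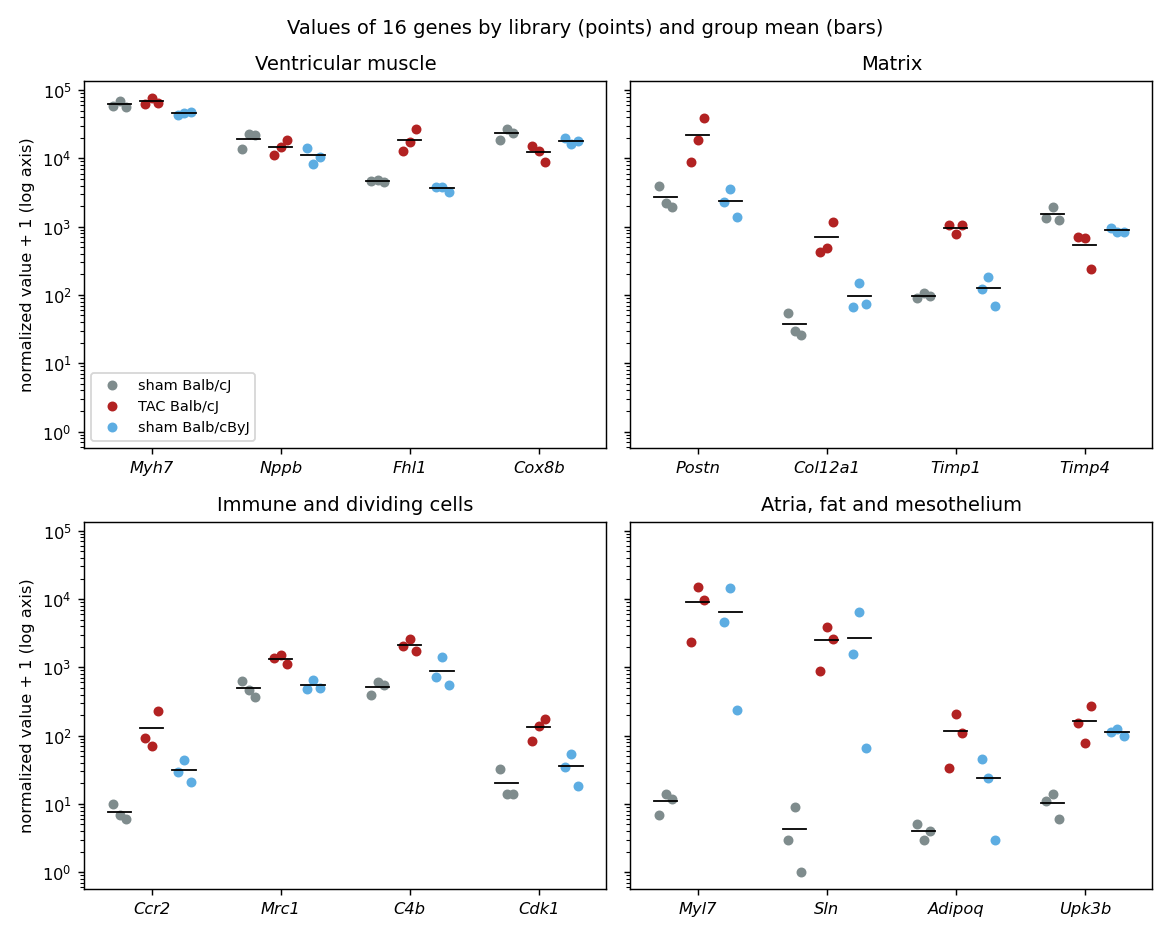
Normalized values plus 1 (log axis) of 16 genes in each library (points) with the group mean (bars), for sham Balb/cJ, TAC Balb/cJ and sham Balb/cByJ. Myh7 and Nppb overlap between the Balb/cJ groups, Fhl1, Timp1, Ccr2 and Cdk1 separate them, and Myl7, Sln, Adipoq and Upk3b are lower in every sham Balb/cJ library than in every TAC Balb/cJ library.

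Genes of the adult ventricle fell by small amounts or did not pass. In the ventricular identity list 11 of 30 members fell, 1 rose and 18 did not pass, with a median of -0.31. The muscle creatine kinase gene Ckm was at 125279, 174040 and 148136 in sham and at 98063, 96664 and 65141 after TAC, a fall of 0.80 ± 0.20 on the log2 scale (-0.80, limma adjusted p = 0.0213). Tcap, the titin cap, differed by -0.85 ± 0.24, and did not pass without sham 2 or TAC 6. Myl2, the ventricular myosin light chain, was at 297486, 466863 and 368328 in sham and at 250387, 254205 and 152994 after TAC, without overlap. Its fall (-0.80 ± 0.27, adjusted p = 0.0547) did not pass without sham 2, sham 3 or TAC 6. Myh6 (-0.32 ± 0.30) and the calcium pump gene Atp2a2 (-0.31 ± 0.24) did not pass. Lower values of muscle genes can come from fewer muscle cells in the sample or from less RNA per cell, which cannot be told apart in bulk tissue. The identity list had 2, 2 and 5 falls without TAC 6, sham 2 and sham 3.

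Excitation and calcium handling genes split. Of 38 members 12 fell, 2 rose and 24 did not pass, with a median of -0.03, which turned to 0.18 with total rescaling. Kcnj11, the pore of the ATP-sensitive potassium channel, fell from 4132, 4246 and 4546 to 3519, 3270 and 2774 (-0.44 ± 0.09, limma adjusted p = 0.011). Kcnip2, a subunit of the transient outward potassium channel, differed by -0.70 ± 0.17. S100a1, a calcium-binding partner of the calcium release channel and the calcium pump, was at 27493, 38772 and 32569 in sham and 19644, 20782 and 16877 after TAC (-0.78 ± 0.15). All 3 genes fell without overlap of the groups. The falls in the list numbered 6, 5 and 6 without TAC 6, sham 2 and sham 3.

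Of 77 nuclear genes of oxidative phosphorylation 66 fell, 0 rose and 11 did not pass by limma, with a median of -0.55. The heart and muscle form of a cytochrome oxidase subunit, Cox8b, was at 18778, 27326 and 23366 in sham and at 15289, 12752 and 8874 after TAC, a fall of 0.93 ± 0.19 on the log2 scale (-0.93, adjusted p = 0.00949). Uqcrq of complex III went from 21346, 31684 and 26119 to 17698, 16302 and 11774 (-0.79 ± 0.18), and Atp5g1 of the ATP synthase from 16416, 25648 and 21549 to 14004, 13476 and 10099 (-0.75 ± 0.17). In each of these genes sham 2 was the highest library and TAC 6 the lowest. Without TAC 6, sham 2 or sham 3 the falls in the list numbered 32, 26 and 43. Of 32 genes of fatty acid uptake and oxidation 18 fell and 0 rose by limma, with a median of -0.54, and 4, 2 and 4 fell without TAC 6, sham 2 and sham 3. Etfb, a subunit of the flavoprotein that takes electrons from fatty acid oxidation, was at 22652, 34559 and 28462 in sham and 19225, 17920 and 9513 after TAC (-0.92 ± 0.24), and its difference was -0.60 without TAC 6. Fabp3, the fatty acid binding protein of heart muscle, differed by -0.68 ± 0.21 and did not pass without sham 2, sham 3 or TAC 6 (-0.44 without TAC 6). Acads differed by -0.54 ± 0.15 and did not pass without sham 2. Regulators of oxidative metabolism fell in 4 of 18 members (22.2%, beside 16.2% of all genes), 0 rose by limma and 14 did not pass. The 4 include the retinoid receptor Rxrg (-0.90 ± 0.17) and the mitochondrial deacetylase Sirt3 (-0.59 ± 0.13). Over all 231 measured ventricular genes 114 fell, or 82 with the linear atrial covariate and 47, 39 and 59 without TAC 6, sham 2 and sham 3. Without sham 3, 2 of the regulators fell.

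Matrix genes rose from sham values that were well above 0. Of 190 measured matrix genes 138 rose, 1 fell and 51 did not pass, with a median of 0.85. Collagens rose in 26 of 32 members with 0 falls and a median of 1.24. Col1a1, a chain of the main fibrillar collagen, was at 5347, 4161 and 2717 in sham and 12917, 14508 and 35496 after TAC, a rise of 2.26 ± 0.38 (limma adjusted p = 0.00517). Col3a1 of the other main fibrillar collagen was at 10638, 7485 and 5446 and at 25934, 38487 and 67769 (2.43 ± 0.36). Col12a1, which binds collagen fibrils, was at 54, 29 and 25 and at 428, 488 and 1170 (4.16 ± 0.43). The groups did not overlap in any of the 3, and TAC 6 held the highest value of each, as it did for 30 of the 32 collagens, against 39.0% of all genes. Processing and crosslinking genes rose in 19 of 26 members (median 0.59, 0 falls), with the lysyl oxidase Lox at 117, 127 and 103 in sham and 564, 498 and 1531 after TAC (2.70 ± 0.39), and the collagen chaperone Fkbp10 at 529, 480 and 445 and at 1047, 1115 and 1348 (1.26 ± 0.16). In sham Balb/cByJ Lox was at 84, 97 and 109 and Fkbp10 at 900, 1234 and 987. Their differences after TAC in that strain were 2.05 ± 0.39 and 0.06 ± 0.16, and for neither did the difference between the strains' effects pass. Proteoglycan and elastic fiber genes rose in 28 of 32 members, with a median of 1.05, or 1.02 without Hapln1. Hapln1 is listed at 0 in all sham Balb/cJ libraries and at 48, 43 and 7 in sham Balb/cByJ. Elastin (Eln) was at 1184, 1399 and 975 and at 3905, 3389 and 7882 (2.00 ± 0.30), versican (Vcan) rose by 1.81 ± 0.23 and the hyaluronan receptor Cd44 by 1.63 ± 0.19.

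Matricellular proteins, which sit in the matrix and act on cells, rose in 17 of 23 members (median 1.04, 0 falls). Postn, periostin, a product of activated fibroblasts (Entrez 50706, chromosome 3 at 54361107 to 54391041, plus strand of mm10, 23 exons), was at 3969, 2236 and 1968 in sham and at 8988, 18376 and 39031 after TAC. It rose by 2.84 ± 0.48 (limma adjusted p = 0.00538), without overlap. Wisp2, a secreted protein of the CCN family, was at 185, 179 and 209 and at 758, 983 and 2239 (2.63 ± 0.33). Tenascin C (Tnc) was at 36, 35 and 17 and at 254, 383 and 472 (3.64 ± 0.49). Cthrc1, a secreted protein of activated fibroblasts, was among the matrix genes nearly absent from sham, at 5, 8 and 4, and reached 134, 87 and 509 (4.82 ± 0.69). Of 29 matrix proteases and their inhibitors 18 rose and 1 fell (median 0.68). The 2 ends of that list were inhibitors of the same family: Timp1 was at 90, 104 and 97 and at 1043, 783 and 1055 (3.28 ± 0.34, adjusted p = 0.000775), while Timp4, the form abundant in heart, was at 1352, 1951 and 1241 and at 700, 688 and 235 (-1.62 ± 0.33, adjusted p = 0.0101). Adamts15, a proteoglycan-cleaving protease, rose by 1.07 ± 0.16.

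Fibroblast identity and activation genes rose in 16 of 24 members (median 0.70, 0 falls). Pi16, a marker of resting fibroblasts of the vessel surround, was at 2741, 3131 and 2339 in sham and 4697, 6384 and 7042 after TAC (1.13 ± 0.16, limma adjusted p = 0.00312), and the Wnt modulator Sfrp2 was at 60, 41 and 40 and at 289, 226 and 710 (2.93 ± 0.40). Genes of transforming growth factor beta and activin signalling rose in 16 of 26 members (median 0.58, 0 falls). By role, the ligand Tgfb2 was at 454, 350 and 348 and at 895, 1025 and 2029 (1.69 ± 0.26), the activin subunit Inhba at 7, 5 and 1 and at 58, 24 and 34 (3.02 ± 0.55), and the receptor Tgfbr1 at 377, 316 and 333 and at 687, 597 and 593 (0.87 ± 0.12). None of these groups overlapped, and Inhba was nearly absent from sham. Some sums of neighbouring tissue lists rose as well. The valve, tendon and cartilage sum ran from 5722 to 6281 in sham and 14104 to 25858 after TAC. The mesothelial sum ran from 8812 to 10274 and 15958 to 18135. The fat sum ran from 153164 to 163164 in sham and 92308 to 148889 after TAC. It includes genes with high sham means that fell, such as Fabp4 (22300) and Dgat2 (10500). Adipoq and Cfd, which rose, had sham means of 3.0 and 9.67 and add little to it, so this sum does not measure fat cells. The part of neighbouring tissues in the matrix result was not tested. With the linear atrial covariate 119 of the 190 matrix genes were higher, and without TAC 6, sham 2 or sham 3, 106, 108 and 109.

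Of 181 measured immune genes 93 rose and 3 fell, with a median of 0.71, and 77 were higher with the linear atrial covariate. Of 131 measured genes of neighbouring tissues 69 rose and 5 fell, and their part in the immune result was not tested. Macrophage and monocyte genes rose in 24 of 32 members, with 0 falls by limma and a median of 1.07. Mrc1, the mannose receptor of resident-type macrophages, was at 640, 468 and 363 in sham and 1377, 1526 and 1123 after TAC (1.48 ± 0.21, adjusted p = 0.00312). C1qb, a chain of complement C1q that macrophages make, was at 1477, 1242 and 1074 and at 2341, 2701 and 2065 (0.91 ± 0.17). Ccr2, the receptor of recruited monocytes (Entrez 12772, chromosome 9 at 124102183 to 124109140, plus strand of mm10, 3 exons), was at 9, 6 and 5 and at 90, 69 and 230 (3.92 ± 0.44). In all 3 the groups were separate, and the sham level of Ccr2 was low where that of Mrc1 was not. Itgam, an integrin of myeloid cells, rose by 1.43 ± 0.22. In contrast to the collagens, the highest TAC value fell in library 4 for 6 of the 32 macrophage genes, in library 5 for 14 and in library 6 for 12.

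Among 23 chemokine genes 14 rose and 0 fell by limma, with a median of 1.00. Ccl2, the ligand of Ccr2, was at 17, 29 and 16 in sham and 131, 78 and 133 after TAC (2.42 ± 0.32, adjusted p = 0.0029), and Ccl8, also a ligand that draws monocytes, at 18, 52 and 65 and at 334, 446 and 854 (3.64 ± 0.65). The chemokine list had 8 and 9 rises without TAC 6 and sham 3. Leukocyte adhesion genes rose in 9 of 13 members (median 0.86), with Selp, P-selectin of activated endothelium and platelets, at 38, 47 and 27 and at 234, 141 and 206 (2.35 ± 0.36). Antigen presentation genes rose in 10 of 16 members (median 0.66). The class II gene H2-Ab1 was at 1071, 706 and 573 and at 1226, 1238 and 1469 (0.79 ± 0.18), and the dendritic cell lectin Cd209a was at 4, 2 and 8 and at 56, 31 and 27 (2.85 ± 0.44). This list had 6 rises without TAC 6. Class II genes resemble each other, and how reads shared between such copies were counted is not given in the sources used here.

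Complement genes rose in 19 of 21 members (90.5%, median 1.07, 0 falls by limma). C4b was at 389, 609 and 548 in sham and 2041, 2564 and 1732 after TAC (2.04 ± 0.31, adjusted p = 0.00377), and factor B (Cfb) at 57, 64 and 33 and at 195, 294 and 359 (2.45 ± 0.41). Cytokine and acute-phase genes numbered 12 rises and 2 falls among 30 members (median 0.55), with the acute-phase apolipoprotein Saa3 at 6, 7 and 13 and at 102, 60 and 93 (3.19 ± 0.71). Few changes were found in the interferon response list, the T, NK and B cell list and the neutrophil list. Interferon response genes rose in 4 of 27 members (14.8%, beside 15.3% of all genes), with the nucleic acid sensor Zbp1 at 16, 11 and 7 and at 46, 55 and 85 (2.37 ± 0.37). The list had 2 rises without TAC 6, sham 2 or sham 3. Of 10 T, NK and B cell genes, 9 of them nearly absent from sham, 1 rose, the antibody chain Ighm (0.68 ± 0.24), which did not pass without sham 3 (0.43), TAC 4 or TAC 6. None of 6 neutrophil genes passed by limma, and S100a9 was at 43, 547 and 176 in sham and 146, 213 and 61 after TAC. Mast cell genes rose in 3 of 7 members, 1 without TAC 6 and 0 without sham 3, and the 1 that fell, Gata2 (-0.79 ± 0.17), is also an endothelial transcription factor.

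Cell division genes rose in 41 of 49 members (83.7%) with 0 falls by limma and a median of 1.79, and 16 of the 41 were nearly absent from sham. The mitotic kinase Cdk1 was at 31, 13 and 13 in sham and 83, 136 and 176 after TAC (2.78 ± 0.46, adjusted p = 0.00517). Aurkb, a kinase of chromosome segregation, was at 14, 8 and 7 and at 46, 54 and 79 (2.53 ± 0.36). Ect2, which sets the cleavage plane, was at 3, 2 and 1 and at 15, 39 and 55 (3.51 ± 0.60), and Cdca3, which triggers mitotic entry, at 19, 15 and 12 and at 51, 73 and 109 (2.22 ± 0.40). In all 4 genes TAC 6 was highest and TAC 4 lowest among the TAC libraries, and TAC 6 was highest for 42 of the 49 members. Without TAC 6, 29 rose. Of the immune genes 93 of 181 also rose, and of the neighbouring tissue genes 69 of 131. The part of these tissues in this result was not tested. Which cells divided cannot be read from bulk RNA.

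Because these genes rose together, their promoters are shown. Promoters of the cell division list hold, as background, a CCAAT box bound by NF-Y and a cell cycle homology region with the letters TTTGAA more often than others. In the windows from 250 bases before to 50 after the gene start (RefSeq, GRCm38.p6), which matched 10919 of the genes tested, CCAAT on either strand stood in 29 of 39 cell division promoters (74.4%) and in 38.4% of all. TTTGAA on either strand stood in 20 of 39 (51.3%) and in 11.6% of all. The promoters of Cdk1 (chr10:69352863-69353162, minus strand), Ect2 (chr3:27153829-27154128, minus strand) and Cdca3 (chr6:124829926-124830225, plus strand) are given 5′ to 3′ with both motifs in capitals, written as ATTGG where CCAAT is on the other strand. The motifs do not overlap each other, and a match is a description, not a site of binding.
Cdk1: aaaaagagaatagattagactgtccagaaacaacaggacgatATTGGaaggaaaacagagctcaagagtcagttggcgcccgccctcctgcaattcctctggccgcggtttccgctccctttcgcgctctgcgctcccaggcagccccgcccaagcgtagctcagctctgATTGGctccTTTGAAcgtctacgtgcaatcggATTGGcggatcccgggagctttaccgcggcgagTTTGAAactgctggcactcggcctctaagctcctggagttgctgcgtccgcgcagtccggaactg
Ect2: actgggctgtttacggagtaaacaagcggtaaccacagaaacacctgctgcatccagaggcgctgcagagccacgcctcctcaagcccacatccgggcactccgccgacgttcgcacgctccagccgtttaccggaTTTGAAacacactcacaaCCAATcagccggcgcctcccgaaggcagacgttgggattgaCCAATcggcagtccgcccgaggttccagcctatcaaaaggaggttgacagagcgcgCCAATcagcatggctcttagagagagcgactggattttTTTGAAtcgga
Cdca3: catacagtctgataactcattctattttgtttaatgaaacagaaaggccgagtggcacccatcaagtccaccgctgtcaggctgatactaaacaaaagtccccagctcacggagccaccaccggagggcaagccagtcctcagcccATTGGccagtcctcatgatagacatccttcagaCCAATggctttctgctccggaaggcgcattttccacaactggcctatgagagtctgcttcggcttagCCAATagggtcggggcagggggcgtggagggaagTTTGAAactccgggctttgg
Each of the 3 windows holds CCAAT 3 times. TTTGAA stands 2 times in Cdk1 and Ect2 and 1 time in Cdca3.

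Of 34 endothelial genes 17 fell, 2 rose and 15 did not pass, with a median of -0.50. Gpihbp1, which carries lipoprotein lipase to the capillary surface, was at 3491, 3624 and 3089 in sham and 1805, 2176 and 1245 after TAC (-1.0 ± 0.17, limma adjusted p = 0.00537). Cd300lg, a capillary surface protein, was at 4655, 3858 and 3545 and at 1906, 2490 and 1294 (-1.12 ± 0.21), and the junction protein Esam at 2970, 3037 and 2526 and at 1926, 2183 and 1619 (-0.58 ± 0.11). The groups did not overlap in these 3 genes. The 2 that rose, chosen for naming after their values were seen, were the clotting factor carrier Vwf (0.58) and the venous and fenestral protein Plvap (0.98). Both were among the calls lost without sham 2, and Plvap also without TAC 6. In Balb/cByJ 1 endothelial gene rose and 0 fell by limma, with a median of 0.02. In sham Balb/cByJ Gpihbp1 was at 2103, 1940 and 2462, Cd300lg at 2473, 2378 and 3387 and Esam at 2175, 1985 and 2348, below all 3 sham Balb/cJ values of each. The difference between the strains' effects passed for 0 genes of the list. Smooth muscle and pericyte genes rose in 3 of 20 members (15.0%, beside 15.3% of all genes, median 0.14), including the pericyte proteoglycan Cspg4 (0.76 ± 0.17). Smooth muscle actin Acta2, also a marker of myofibroblasts, was at 6702, 12926 and 10524 in sham and at 19712, 12806 and 13716 after TAC (0.64 ± 0.27). Its groups overlap, it did not pass, and it passed with upper-quartile or total rescaling.

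Among the lists, atrial muscle genes had the highest median difference, 3.09. Of 18 measured members 13 rose and 0 fell by limma, and 5 of the 13 were nearly absent from these shams. The atrial myosin light chain Myl7 (Entrez 17898, chromosome 11 at 5896637 to 5898782, minus strand of mm10, 7 exons) was at 6, 13 and 11 in sham Balb/cJ and at 2381, 15126 and 9598 after TAC. In sham Balb/cByJ it was at 4670, 14508 and 237. The rise in Balb/cJ was 9.38 ± 1.48 (limma adjusted p = 0.00426). Sarcolipin (Sln), the atrial inhibitor of the calcium pump, was at 2, 8 and 0, then 888, 3960 and 2627, and in sham Balb/cByJ at 1576, 6466 and 64 (9.45 ± 1.60 in Balb/cJ). Its rise was 9.90 with a pseudocount of 0.5 and 8.10 with 5, so its size rests on the pseudocount. The second atrial light chain Myl4 was not under the limit, at 100, 118 and 133, and reached 3439, 23335 and 13687 (6.46 ± 1.38). Hamp, which encodes the iron hormone hepcidin, was at 2, 0 and 0 and at 51, 270 and 241 (6.71 ± 1.59), and the atrial growth factor Bmp10 at 1, 0 and 2 and at 327, 43 and 1264 (7.18 ± 2.18, which did not pass without sham 2 or TAC 6). In sham Balb/cByJ, Hamp was at 157, 469 and 5 and Bmp10 at 17, 193 and 0, so these atrial genes also spread widely over the sham libraries of the other strain. A member with a higher sham level, the vessel growth factor Angpt1, was at 226, 185 and 270 and at 791, 480 and 484 (1.34 ± 0.28). TAC 5 held the highest value for 10 of the 18 members. The list had 8 rises without sham 2.

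Conduction and pacemaker genes rose in 8 of 17 members (median 0.65, 0 falls by limma). The T-type calcium channel Cacna1g was at 284, 288 and 280 in sham Balb/cJ, then at 516, 691 and 660 after TAC, and in sham Balb/cByJ at 573, 1052 and 586. Its Balb/cJ groups did not overlap, and it rose by 1.12 ± 0.21 (limma adjusted p = 0.0072). Cntn2, an adhesion protein of the conduction fibers, was at 68, 9 and 145 and at 762, 244 and 129, where the groups overlap. It rose by 2.64 ± 1.00, and did not pass without sham 2 (1.53), TAC 4 or TAC 5. The list had 4, 3 and 4 rises without TAC 6, without sham 2 and with the linear atrial covariate.

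Fat cell genes moved in both directions. Of 23 measured members 12 rose, 4 fell and 7 did not pass, with a median of 1.64, and 9 of the 12 that rose were nearly absent from sham. Adiponectin (Adipoq; Entrez 11450, chromosome 16 at 23146536 to 23157968, plus strand of mm10, 3 exons), a hormone of fat cells, was at 4, 2 and 3 in sham Balb/cJ and 33, 208 and 108 after TAC. In sham Balb/cByJ it was at 44, 23 and 2. It rose by 4.55 ± 0.97 in Balb/cJ (limma adjusted p = 0.0114). Adipsin (Cfd) was at 15, 7 and 7 and at 189, 1112 and 483 (5.54 ± 1.07), and the lipid droplet protein Cidec at 2, 2 and 4 and at 56, 241 and 150 (5.17 ± 1.04). Plin1, the droplet coat of fat cells, was at 4, 1 and 10 and at 27, 153 and 79 (3.87 ± 1.22, which did not pass without sham 2, TAC 5 or TAC 6). In each of these 4 genes TAC 5 was highest and TAC 4 lowest, and TAC 5 was highest for 18 of the 23 members. The deiodinase Dio2, which muscle also expresses, had another order, at 74, 68 and 30 and then 188, 280 and 500 (2.46 ± 0.40). The 4 genes that fell, Fabp4 (-0.77 ± 0.18), Thrsp (-1.39 ± 0.36), Pparg (-0.73) and Dgat2 (-0.97), had sham means above 20, and Pparg and Dgat2 were chosen for naming after the values were seen. Fabp4 is also a capillary gene and was at 25195, 23099 and 18588 in sham. Pparg did not pass without sham 2 or TAC 6, nor Dgat2 without sham 2 or sham 3. The list had 7 rises without sham 2.

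Mesothelial genes rose in 14 of 21 members (median 1.26, 0 falls by limma), and 8 of the 14 were nearly absent from sham. Upk3b, a uroplakin of the mesothelial sheet (Entrez 100647, chromosome 5 at 136038496 to 136044993, plus strand of mm10, 6 exons), was at 10, 13 and 5 in sham Balb/cJ, 150, 76 and 268 after TAC, and 113, 123 and 98 in sham Balb/cByJ. It rose by 3.91 ± 0.40 in Balb/cJ (adjusted p = 0.000775). Mesothelin (Msln) was at 4, 18 and 13, then 238, 45 and 296 (3.75 ± 0.67), and in sham Balb/cByJ at 59, 91 and 65. Lrrn4, a membrane protein of mesothelium, was at 1, 1 and 0 and at 39, 19 and 48 (4.42 ± 0.46), and the keratin Krt8 at 3, 2 and 1 and at 38, 27 and 38 (3.60 ± 0.53). The groups did not overlap, and unlike the fat genes these 4 were lowest in TAC 5. The 3 sham Balb/cByJ values of Upk3b lay close together, where those of Myl7 spanned 237 to 14508.

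Valve, tendon and cartilage genes rose in 18 of 21 members, with 0 falls by limma and a median of 2.71, or 1.80 without Clec3a and Hapln1, which are listed at 0 in all 3 sham Balb/cJ libraries. Clec3a, a cartilage lectin, reached 14, 207 and 166 after TAC and was at 36, 121 and 14 in sham Balb/cByJ. Hapln1, a link protein of hyaluronan and proteoglycans, reached 40, 25 and 29. Fibromodulin (Fmod), a collagen-binding proteoglycan of tendon and valve, was at 12, 17 and 8 and at 365, 493 and 1531 after TAC (5.67 ± 0.53, adjusted p = 0.000622). Comp, a cartilage matrix protein that fibroblasts also make, was at 145, 71 and 123 and at 620, 902 and 1791 (3.20 ± 0.44), and lubricin (Prg4) at 156, 199 and 132 and at 421, 793 and 525 (1.80 ± 0.25). Dkk3, a secreted Wnt modulator that is also in the atrial list, was at 268, 197 and 200 and at 1956, 2752 and 3570 (3.60 ± 0.53). Comp, Prg4 and Dkk3 had sham means above 20, as did 11 of the 18 genes of the list that rose. Some members of this list are shared with matrix lists, and tissue that holds valves cannot be told from remodelled wall by them.

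Schwann cell and neuron genes rose in 3 of 17 members (17.6%) and skeletal muscle genes in 2 of 6, or in 0 without sham 2. None of 8 blood and erythroid genes passed by limma, with the globin Hbb-bs at 7770, 18261 and 9950 in sham and 8102, 10947 and 4691 after TAC. Immediate-early genes, which respond to handling, rose in 5 of 23 members (21.7%). Among 31 heat shock and unfolded protein genes 6 were rises (19.4%) and 2 were falls, with the disulfide isomerases Pdia3 (0.52 ± 0.08, limma adjusted p = 0.00456) and Pdia4 (0.61 ± 0.10) among the rises. Those shares lie near the 15.3% of all genes. The immediate-early list had 1 and 3 rises without sham 2 and TAC 6, and the heat shock list 3 and 10. In the list of lung, thymus, liver and thyroid genes, 1 of 2 fell and 0 rose by limma, and 0 fell without TAC 6, sham 2 or sham 3.

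The order of the 3 TAC libraries differed between lists. The summed collagen list was 52126 to 88391 in the shams and 125709, 166817 and 300509 in TAC 4, 5 and 6. The summed oxidative phosphorylation list ran the other way, from 1677064 to 2393806 in the shams to 1653233, 1494646 and 1123101. TAC 4 was highest among the TAC libraries for 74 of 77 oxidative phosphorylation genes (32.9% of all genes), and TAC 6 for 30 of 32 collagens. The summed atrial list, which includes Nppa, was 40540 to 56933 in the shams and 85486, 210497 and 222175 after TAC. Macrophage sums (24713 to 31159 in sham) were 53479, 50344 and 45429, and complement sums (23164 to 23790) were 40461, 43496 and 36371. Thus TAC 6 was highest for collagen, and lowest for oxidative phosphorylation, macrophage and complement sums. Replicates have no order, and with 3 TAC libraries no relation between these sums was tested.

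**Figure D4:**
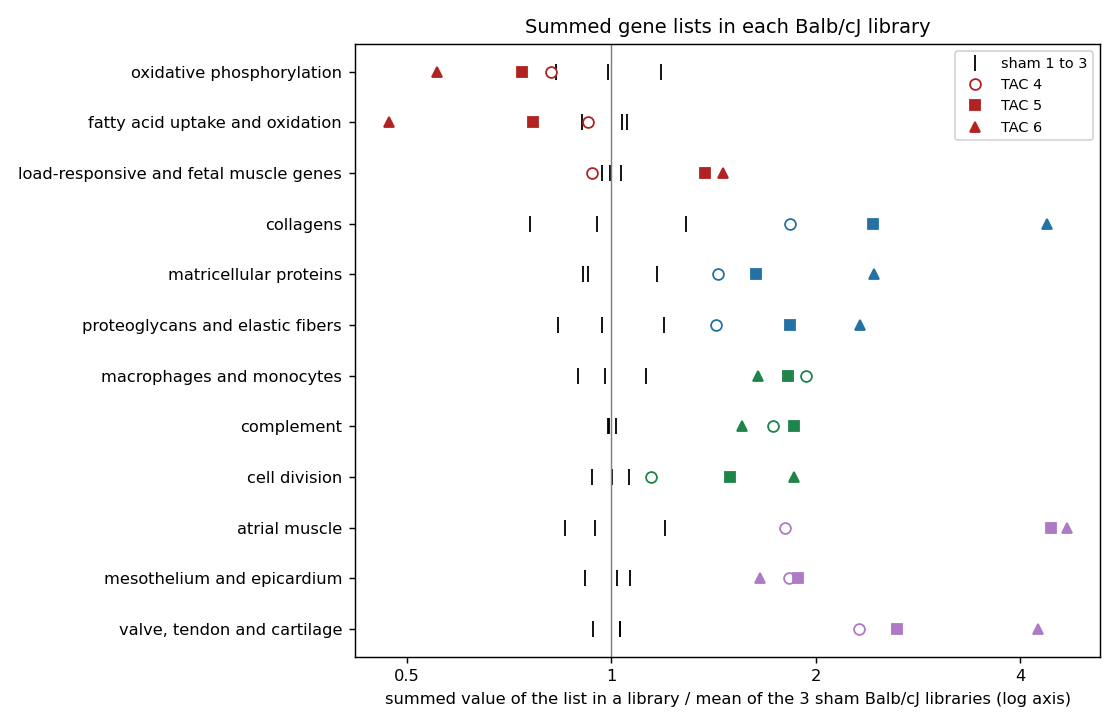
Summed normalized values of 12 gene lists in each Balb/cJ library, divided by the mean of the 3 sham libraries (log axis), with shams as ticks and TAC 4, 5 and 6 as circles, squares and triangles. Collagens spread from TAC 4 to TAC 6, oxidative phosphorylation and fatty acid genes spread the opposite way, and macrophage, complement and mesothelial sums lie close together above the shams.

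Within groups, the level of atrial genes varied between libraries and genes are described by how they followed it. The mean log2 level of Myl7, Sln and Myl4 was added to the fit, and the slope of each gene on it was read across the 12 libraries after group means were removed. That level spread most in Balb/cByJ, where Myl7 spanned 237 to 14508 in sham and 640 to 30930 after TAC. In Balb/cJ it spanned 6 to 13 and 2381 to 15126. The slopes therefore draw more on Balb/cByJ than on Balb/cJ. The slope passed for 24 genes (0.171% of those tested), 17 of which also rose after TAC in Balb/cJ. The 3 covariate genes were among them by construction. Of the others, Hamp had a slope of 1.03 ± 0.10 (limma adjusted p = 0.00059), Nppa of 0.59 ± 0.08 (0.0122), Cidec of 0.63 ± 0.10 (0.0287) and Dkk3 of 0.31 ± 0.05 (0.0442), where a slope of 1 means that a gene changes by the same fold as the atrial level. The atrial list had a median slope of 0.39 with 7 of 18 members past the threshold, the 3 covariate genes included. The fat list had 0.08 with 1 of 23. Its members Adipoq (0.55 ± 0.11), Cfd (0.60 ± 0.12) and Plin1 (0.68 ± 0.14) had larger slopes, which did not pass. Medians were 0.02 for collagens, 0.03 for macrophages, 0.04 for complement, 0.05 for cell division and 0.00 for oxidative phosphorylation. Among single genes the slope was 0.02 for Col1a1, 0.11 for Postn, 0.03 for Fhl1, 0.02 for Ccr2 and -0.01 for Upk3b, none of which passed. On the level of Adipoq, Cfd and Plin1 the slope passed for 13 genes (0.0926%), 9 of them in the fat list. That list holds the 3 genes that make up the level, whose own slopes are partly fixed by construction. The atrial list had a median slope of 0.46 on the fat level, with 2 of 18 members past the threshold, so the atrial and fat levels are not shown to vary apart. On the level of Upk3b, Msln and Krt19 the slope passed for 0 genes (0.0%) by limma, so that Upk3b and Msln did not pass on their own level. Without TAC Balb/cByJ 6 the slope of Upk3b on that level was 0.72 ± 0.18 (limma adjusted p = 0.968). The 0 therefore cannot show that no gene followed the mesothelial level. Without the library labelled TAC Balb/cByJ 6, the slopes passed for 22, 12 and 0 genes on the atrial, fat and mesothelial levels, and Hamp (1.03), Nppa (0.59), Cidec (0.65) and Dkk3 (0.32) still passed on the atrial level.

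**Figure D5:**
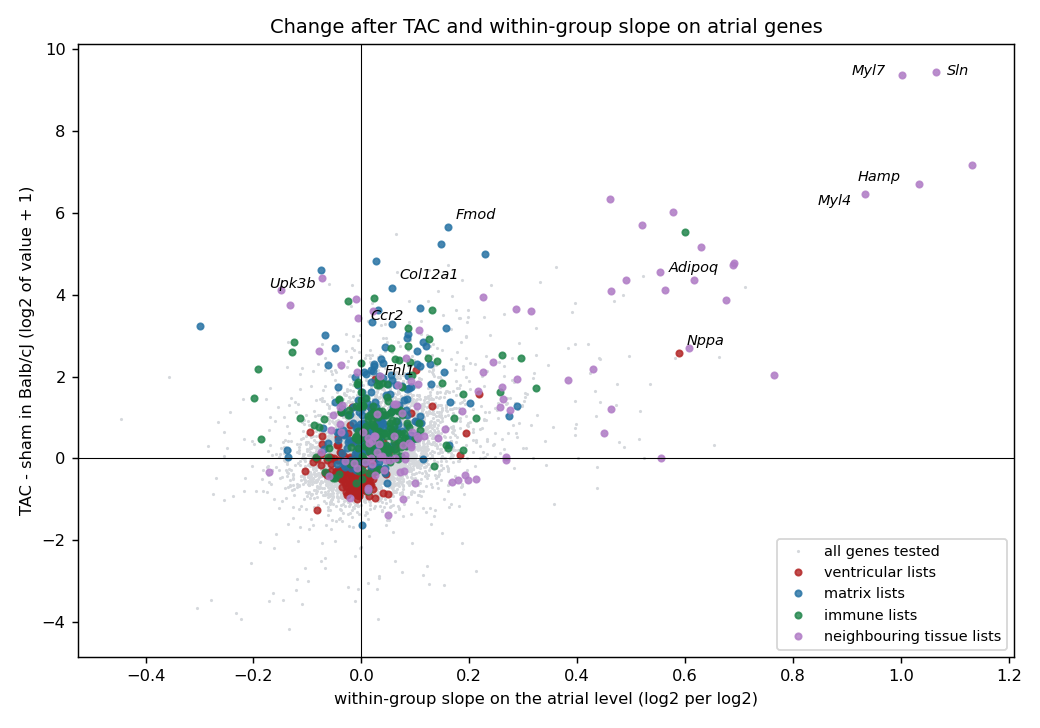
Difference between TAC and sham in Balb/cJ (log2 of value plus 1, vertical) against the slope on the atrial level within groups (log2 per log2, horizontal) for all genes tested, with members of ventricular, matrix, immune and neighbouring tissue lists in color (a gene on several lists has 1 color, so that Nppa is drawn with the ventricular lists). Atrial genes such as Myl7, Sln, Myl4 and Hamp lie at slopes near 1 with large rises, Nppa and Adipoq lie between, and Col12a1, Fmod, Ccr2, Upk3b and Fhl1 rise at slopes near 0.

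The same contrast in Balb/cByJ shares no library with this one. There 1097 genes rose (7.81% of all genes) and 668 fell (4.76%). The genes higher in both strains numbered 775, which is 36.1% of those in Balb/cJ and 70.6% of those in Balb/cByJ, and 425 were lower in both (18.7% and 63.6%). Without the library labelled TAC Balb/cByJ 6, 557 rose and 130 fell in Balb/cByJ, and 459 and 81 were shared. The difference between the strains' effects passed for 1 gene (0.00712%) by limma, with 954 at an unadjusted p under 0.05. This gene, Prss35, a serine protease-like secreted protein chosen for naming after its values were seen, was at 0, 0 and 1 in sham Balb/cJ and 69, 32 and 76 after TAC. In Balb/cByJ it was at 38, 73 and 43 in sham and 42, 56 and 113 after TAC. Side by side, the fitted rise of Fhl1 was 1.94 in Balb/cJ and 1.49 in Balb/cByJ, that of Postn 2.84 and 2.28, that of Timp1 3.28 and 2.11, that of Mrc1 1.48 and 1.28 and that of Ccl2 2.42 and 0.01. That of Myl7 was 9.38 and 1.38, and that of Upk3b 3.91 and 0.90. None of these differences between the strains passed.

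Among genes with a symbol, a mean of at least 50 and groups that did not overlap, the largest falls included 6 further genes, of which Rgcc is in the endothelial list. Aqp6, a water channel, was at 2933, 1564 and 2015 in sham and at 722, 992 and 137 after TAC (-2.18 ± 0.65, limma adjusted p = 0.036). Without TAC 6 its difference was -1.31 and did not pass. Gnb3, a G protein subunit, was at 523, 450 and 577 and at 117, 241 and 70 (-2.02 ± 0.40), and Bex1, a small adaptor protein, at 490, 406 and 392 and at 110, 221 and 102 (-1.65 ± 0.38). The noncoding RNA Bc1 was at 97, 133 and 163 and at 46, 47 and 31 (-1.63 ± 0.28). ND6, a complex I subunit from the light strand of mitochondrial DNA, was at 2633, 5036 and 1977 and at 923, 606 and 1297 (-1.72 ± 0.39). Rgcc, a cell cycle regulator of vessels, was at 2226, 2580 and 2315 and at 1124, 1423 and 339 (-1.54 ± 0.39), and its difference was -0.90 without TAC 6. The groups did not overlap in these 6 genes. In sham Balb/cByJ Bex1 was at 95, 52 and 95, below all TAC values of Balb/cJ.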

How the data were processed

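A set of 12 RNA-seq libraries of heart tissue, in 4 groups of 3, was used, prepared from total RNA with a stranded mRNA kit per the labels' protocols. Per the submitters' processing notes, reads were processed with STAR, Subread, featureCounts and DESeq2 on mm10. Versions, annotation and the strand setting of counting were not named in the sources at hand, so reads of overlapping or near-identical genes may be divided between them. The deposited values are a score per gene, depth-normalized counts that the authors rounded to whole numbers, so the raw depth of a library is unknown and no count model was used. The authors also deposited shrunken log2 fold changes and adjusted p-values from DESeq2, per the file headers; in the authors' deposited table, at an adjusted p under 0.1, 1850 genes passed as rises and 1542 as falls, of which 3141 had the same call by limma. Such scaling assumes that most genes do not change, which bears on the balance of rises and falls.

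Here log2 of the value plus 1 was fitted with limma 3.58.1 (R 4.3.3, eBayes with a mean trend) as 4 group means over 12 libraries with 8 residual degrees of freedom, for 14038 of 27179 genes with a mean of at least 10. P-values were adjusted by Benjamini-Hochberg over all genes tested, with a threshold of 0.1. The fit was tested on simulated data of this comparison (14038 genes), with 100 genes changed by 1 on the log2 scale and 100 by 2. It recovered 79% and 95% of them, with 28 false calls. The simulated noise was independent between genes, without shifts shared by a library. Far fewer genes were changed than the 31.5% called in the data, so these rates may not hold there. Genes were named by a rule: the 12 largest rises and falls with separate groups and a mean of at least 50, the 12 largest rises with a sham mean of at least 100, up to 6 members of each of 37 lists by p, and textbook genes; others are said to be chosen after their values were seen. The members and lists were chosen with earlier results of these data known. Alternatives were other filters, pseudocounts, scalings, covariates and left-out libraries. The TAC columns carry the numbers 4 to 6, which no title has, so columns were tied to groups only and numbers pair no samples. Figures and tables used Python 3.11.15.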

Additional observations from a re-analysis of the deposited data

Results flagged for a closer look

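The test of the difference between the strains' effects passed for 1 gene, Prss35, which encodes a secreted serine protease-like protein. It rose by 5.48 in Balb/cJ and differed by 0.38 in Balb/cByJ, a difference of 5.10 (5.1 on the log2 scale, limma adjusted p = 0.0627). All 3 TAC Balb/cJ values (69, 32 and 76) lay above the 3 sham values, which were near 0 (0, 0 and 1). Sham Balb/cByJ was at 38, 73 and 43, and Prss35 entered the test through the groups where it is high. With a pseudocount of 5 the Prss35 difference was 3.15 (limma adjusted p = 0.422), so its size rests on the pseudocount. Over the alternatives, its adjusted p ran from 0.0393 to 1.0, and it was 0.269 without sham Balb/cJ 2.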

How the results depend on the processing

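The rises and falls (2146 and 2273) numbered 3936 and 891 with total rescaling, 0 and 0 with the log-scale atrial or mesothelial covariate, and 1 and 0 with the log-scale fat covariate. The atrial and fat covariates separate the Balb/cJ groups fully, since the groups overlapped in none of their genes, nor did they in Upk3b and Msln of the mesothelial covariate. Differences fitted with them therefore rest on the slopes within groups. The median SE was 0.155 without a covariate and 0.298, 0.362 and 0.253 with the atrial, mesothelial and fat level, and 1431, 539 and 1757 genes had an unadjusted p under 0.05 by limma. Falls numbered 1423 at an adjusted p under 0.05 and 1291 with only the Balb/cJ libraries. Leaving out 1 library gave 1206 to 2387 rises and 866 to 2651 falls. Nearly absent rises numbered 264 and 679 with limits of 10 and 50. The difference between strains, with alternatives chosen after seeing the data, passed for 0 genes without a filter, with a pseudocount of 5, with total rescaling or with any log-scale covariate, for 7 genes with the linear atrial covariate, and for 0 to 4 genes with 1 library left out. Of 102 named genes that passed, 102 passed with either pseudocount, upper-quartile or total rescaling, 98 with the linear atrial covariate, 97 with only the Balb/cJ libraries, and 90 and 92 without sham 2 and TAC 6. Signs turned with the log-scale atrial covariate for Nppa (-2.39), Myl4 (-1.40), Bmp10 (-2.36), Hamp (-2.01), Adipoq (-0.12), Cidec (-0.14) and Plin1 (-1.82), and with the fat covariate for Nppa (-0.92) and Plin1 (-1.29). With the mesothelial covariate they turned for Ighm (-0.01), Fabp4 (0.00), Msln (-0.62), Aqp6 (1.45), Bex1 (0.14), Rgcc (0.23), Pparg (0.04) and Dgat2 (0.39). Beyond the construction of the covariates, the cause was not tested. No paired analysis was possible because the TAC columns carry numbers that no sample title has. With 3 libraries a group and unknown raw depth, differences of genes listed near 0 are limited most.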

Other observations

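Genes without a symbol in the deposited annotation fell more often than they rose, a pattern described after the values were seen. Of 96 such genes tested, 5 rose (5.21%) and 36 fell (37.5%), with a median of -0.39. Of the 39 genes that fell by more than 4-fold, 27 had no symbol. Those 27 genes lie on 13 chromosomes. Their median values were 39, 117 and 57 in sham Balb/cJ 1, 2 and 3, and 5, 1 and 36 in TAC Balb/cJ 4, 5 and 6. Sham 2 was the highest sham and TAC 6 the highest TAC library for each of the 27. In sham Balb/cByJ the medians were 31, 4 and 12. All 3 TAC values lay below all 3 sham values for 26 of the 39 genes.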
